A study of Mus musculus with 6 samples.

Results

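The alpha-beta T cell receptor V segments are the variable gene segments of the alpha chain (Trav) and of the beta chain (Trbv). They were taken as every row of the expression table whose gene symbol starts with Trav or Trbv, which gave 145 of 24559 rows, 120 Trav and 25 Trbv. The study asked how ApoA1, the protein around which HDL particles are built, acts on CD8+ T cells. It used L-4F, a peptide that mimics this protein. One group was CD8+ T cells from the spleen of C57 BL/6 wt mice, kept as primary culture and treated with L-4F. The control was cells of the same source, genotype and culture treated with ABCT Buffer. Each group had 3 RNA-seq libraries, named here by group and replicate number. The sources used here gave no mouse age, dose or time, and did not say that the libraries came from separate mice or cultures. The p-values therefore measure only the spread between these libraries, which may be technical.

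An alpha-beta T cell makes its receptor by joining gene segments: a V to a J segment in the alpha chain, and a V, a D and a J segment in the beta chain. The joined exon is spliced to a constant gene, Trac for alpha and Trbc1 or Trbc2 for beta. The V segment encodes the leader, most of the variable domain and the loops CDR1 and CDR2, and it ends just after a conserved cysteine at the start of CDR3. Since a mature T cell usually carries 1 productive beta chain, reads on V segments give an averaged view of which segments a population uses. In bulk RNA, fewer cells with a segment and less RNA per cell cannot be told apart. Short-read gene counts do not show which V segment was joined to which J segment, nor single clones.

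The 24 forward Trbv rows and Trbv31 lie on chromosome 6 between 40891229 and 41558452 (GRCm38, GENCODE M21, an annotation matched by gene identifier). Trbv31 is the only row on the reverse strand (chr6:41557691-41558452) and lies beyond both constant genes, Trbc1 and Trbc2. All 120 Trav rows lie on the forward strand of chromosome 14 between 52427928 and 53977678, upstream of Trac. GENCODE M21 calls 22 Trbv and 110 Trav rows genes, and 3 and 10 rows pseudogenes. The coding part spanned 291 to 372 bases in Trbv (median 344) and 310 to 377 in Trav (median 340.5), and in all of these it held the cysteine codon. The ends of 8 Trbv coding sequences are shown from GENCODE M21 because these segments are described below. They are the 5 that were called higher with L-4F, Trbv31, and the most used pair, Trbv13-2 and Trbv12-2. Each line gives the last 60 bases, 5′ to 3′, and the capitals mark the last in-frame cysteine codon, where CDR3 begins.
Trbv26: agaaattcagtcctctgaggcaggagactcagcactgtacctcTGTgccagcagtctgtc
Trbv3: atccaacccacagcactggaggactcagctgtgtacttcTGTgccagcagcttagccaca
Trbv2: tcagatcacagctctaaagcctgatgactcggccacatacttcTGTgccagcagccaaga
Trbv4: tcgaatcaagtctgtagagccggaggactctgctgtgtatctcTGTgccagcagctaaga
Trbv29: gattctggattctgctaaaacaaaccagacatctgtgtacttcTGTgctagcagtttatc
Trbv31: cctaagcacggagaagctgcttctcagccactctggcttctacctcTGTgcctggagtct
Trbv13-2: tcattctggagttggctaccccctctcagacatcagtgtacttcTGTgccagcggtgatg
Trbv12-2: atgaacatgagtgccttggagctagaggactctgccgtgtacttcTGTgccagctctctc

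The Trav rows hold many near-identical copies. In C57 BL/6 mice a block of the alpha locus is present in several versions, and the segments of the extra versions carry a D or an N in their names. Members of 1 copy set are shown because their closeness limits what a Trav row can tell. Trav12d-2 has the same coding sequence as Trav12n-2, while Trav12-2 differs from it at the bases in capitals. Trav16n, 1 of the 2 most used Trav rows, is set beside Trav16 in the same way. Each line gives up to 300 bases from the end of the coding sequence, 5′ to 3′ (GENCODE M21), and the capitals mark bases that differ between the 2 rows of a pair, or that 1 row has and the other lacks.
Trav12-2: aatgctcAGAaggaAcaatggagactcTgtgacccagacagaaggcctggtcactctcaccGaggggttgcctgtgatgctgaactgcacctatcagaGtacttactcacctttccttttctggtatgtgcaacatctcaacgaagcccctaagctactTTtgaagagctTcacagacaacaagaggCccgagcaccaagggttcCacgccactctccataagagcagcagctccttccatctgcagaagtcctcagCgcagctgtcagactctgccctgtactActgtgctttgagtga
Trav12d-2: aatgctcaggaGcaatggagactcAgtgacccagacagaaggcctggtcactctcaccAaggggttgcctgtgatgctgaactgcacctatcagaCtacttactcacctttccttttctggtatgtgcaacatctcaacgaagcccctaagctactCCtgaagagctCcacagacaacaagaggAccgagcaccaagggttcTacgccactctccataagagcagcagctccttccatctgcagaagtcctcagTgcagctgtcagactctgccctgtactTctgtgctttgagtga
Trav16n: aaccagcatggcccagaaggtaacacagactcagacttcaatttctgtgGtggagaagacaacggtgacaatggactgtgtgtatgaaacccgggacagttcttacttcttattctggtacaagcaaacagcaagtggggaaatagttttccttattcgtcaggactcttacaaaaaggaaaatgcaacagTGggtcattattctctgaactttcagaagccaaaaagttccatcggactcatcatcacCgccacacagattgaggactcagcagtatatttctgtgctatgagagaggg
Trav16: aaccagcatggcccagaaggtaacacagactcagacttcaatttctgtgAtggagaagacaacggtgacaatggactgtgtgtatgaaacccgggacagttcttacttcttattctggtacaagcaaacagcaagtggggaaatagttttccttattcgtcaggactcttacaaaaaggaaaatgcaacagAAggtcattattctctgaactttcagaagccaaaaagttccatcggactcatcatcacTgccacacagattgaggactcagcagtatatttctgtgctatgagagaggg

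Values are normalized read counts, computed as 2 to the power of the deposited log2 value, less 1. A member's share is its percentage of the summed normalized counts of its chain in that library. Libraries held 25073292 to 31332003 reads. CD8 T cell markers dominated: Cd8a had a mean normalized count of 31369 in the buffer libraries, against 46.6 for Cd4. Of the listed markers of other cells, none was at 0 in all libraries, and Ighm, an antibody heavy chain of B cells, was at 9385 in buffer and 9377 with L-4F. Libraries of 1 group differed by 2.17 to 2.73 times counting noise (median over genes), and libraries of different groups by 7.496 to 9.01 times. The test covered 14922 genes that reached 10 normalized counts in 3 or more libraries, among them 99 Trav and 22 Trbv rows. The 21 Trav and 3 Trbv rows below this level (Trbv21, Trbv12-3 and Trbv22) held 1.86% of Trav and 0.0950% of Trbv counts. A gene was called at a limma adjusted p under 0.05.

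Beta chain counts were spread unevenly over most of the Trbv rows. Trbv13-2 led with a mean share of 11.04% over the 6 libraries, and the 8 most used rows held 59.0%. In buffer libraries 1, 2 and 3, Trbv13-2 made up 11.5%, 11.5% and 10.7% of Trbv counts, and in L-4F libraries 1, 2 and 3 it made up 10.4%, 10.1% and 12.1%. The groups overlapped. Its relatives in the Trbv13 family brought the family to 22.2% ± 0.220 (SD, n = 3) in buffer and 21.1% ± 1.301 (SD, n = 3) with L-4F. The Trbv12 family followed with 13.9% ± 0.261 and 13.5% ± 0.732 (SD, n = 3 each), of which Trbv12-2 alone held 8.56% and 8.05%. Trbv3, Trbv29, Trbv19, Trbv16, Trbv13-1 and Trbv1 came next, between 7.49% and 5.60%. In 19 rows the share passed 1% in every library, and in the other 6 it was under 1% in every library. Scaling counts by transcript length put Trbv13-2 and Trbv12-2 in the same first places, while Trbv19, with a transcript of 566 bases, went from rank 5 to rank 12.

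**Figure D1:**
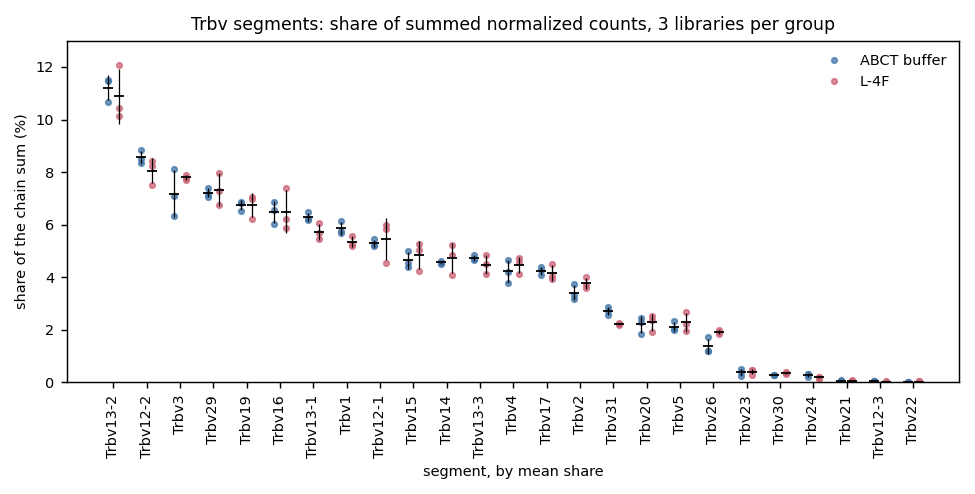
Share of each Trbv row among Trbv counts (percent) in each library; points are libraries, coloured by group, ticks are group means and bars are SD (n = 3). Trbv13-2 was highest in both groups, and Trbv26 and Trbv31 are the rows whose share was called.

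The effective number of Trbv segments, the exponential of the Shannon entropy of the shares, counts how many equally used segments would give the same evenness. It was 17.9, 17.6 and 17.9 in buffer and 18.1, 18.1 and 17.7 with L-4F, and the groups overlapped. The share profiles of 2 libraries differed by 3.21% to 5.62% of Trbv counts within groups and by 4.24% to 5.57% between groups. The medians were 4.37% within and 5.13% between groups. The 3 pairs of buffer libraries differed by 3.21% to 3.92%, less than any pair between groups, and the 3 pairs of L-4F libraries by 4.82% to 5.62%. Pearson's r across the 25 rows, which share library and depth, was 0.977 to 0.993 within groups and 0.981 to 0.989 between them.

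Trbv rows were called higher with L-4F about as often as all tested genes, and 1 called row also had a higher share. Trbv26, Trbv3, Trbv2, Trbv4 and Trbv29 were called higher, and no Trbv row was called lower. This was 5 of 22 tested Trbv rows called higher, against 18.4% of all tested genes called higher and 19.7% called lower. Their log2 fold changes had a median of 0.21 and 20 of 22 were above 0, while the median of all tested genes was -0.00. In 10 rows all L-4F libraries were above all buffer libraries and in 1, Trbv31, all were below, together 50% of the rows against 47.6% of all tested genes (23.2% above, 24.4% below). Among other tested genes with counts in the same range, 12.2% were called higher and 11.7% lower.

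Trbv26 (chr6:41227505-41227993) had normalized counts of 117, 81.1 and 78.4 in buffer libraries 1, 2 and 3, and of 143, 156 and 139 in L-4F libraries 1, 2 and 3. All L-4F libraries were above all buffer libraries, and buffer library 1 was nearest to them. The log2 fold change was 0.68 ± 0.16 (SE, limma adjusted p = 0.00165). Its share of Trbv counts was 1.37% ± 0.294 in buffer and 1.91% ± 0.0903 with L-4F (SD, n = 3 each). On the share scale the log2 fold change was 0.50 (limma adjusted p = 0.0101). Trbv26 kept its call on the level in every setting tried. The call on its share was lost without buffer library 2 (limma adjusted p = 0.0536) or 3 (0.0537), and with a plain spread model (0.0503).

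Trbv3 (chr6:41048290-41048828) is a major segment. Its normalized counts were 435, 548 and 466 in buffer and 582, 606 and 603 with L-4F. The groups did not overlap, and the buffer libraries were more spread than the L-4F libraries. The log2 fold change of its level was 0.31 ± 0.08 (SE, limma adjusted p = 0.00389), and the call was lost with a plain spread model (limma adjusted p = 0.0577). Its share went from 7.18% to 7.80% with overlapping groups, and the change of share was not called (log2 fold change 0.13, limma adjusted p = 0.227). Without buffer library 2 the share of Trbv3 was called higher (log2 fold change 0.22, limma adjusted p = 0.0447).

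Trbv2 is an upstream segment of the cluster. It had 256, 214 and 218 normalized counts in buffer and 271, 287 and 305 with L-4F, again without overlap. The log2 fold change was 0.33 (limma adjusted p = 0.0150), and the call was lost without buffer library 2, buffer library 3 or L-4F library 3. Trbv4 had 320, 256 and 276 in buffer and 311, 356 and 361 with L-4F. Buffer library 1 was above L-4F library 1, so these groups overlapped. Its log2 fold change was 0.27 (limma adjusted p = 0.0361). Trbv29 had 486, 484 and 487 in buffer and 507, 620 and 558 with L-4F, a log2 fold change of 0.21 (limma adjusted p = 0.0421). Shares of Trbv2, Trbv4 and Trbv29 overlapped between the groups and were not called. The call of Trbv4 was lost without buffer library 2 or 3 or L-4F library 2 or 3, and that of Trbv29 without any single library except L-4F library 1. Both were also lost with median centring, quantile normalization, no filter or a plain spread model.

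Trbv31 went the other way in share. Its normalized counts were 175, 192 and 177 in buffer and 164, 175 and 169 with L-4F, a log2 fold change of -0.10 that was not called (limma adjusted p = 0.516). Its shares were 2.55%, 2.86% and 2.69% in buffer and 2.17%, 2.25% and 2.21% with L-4F. All L-4F shares lay below all buffer shares. The log2 fold change of share was -0.29 (limma adjusted p = 0.0473), and the call was lost on leaving out any single library, with no filter, with limma-voom and with a length trend removed. Trbv31 and Trbv26 were the 2 Trbv rows of 22 with a called share. With the table scaled to Trbv counts, 4.85% of all tested genes were called higher and 42.8% lower, since this scaling moved the median of all genes by -0.18. The adjustment ran over all of these genes, and 47.7% were called on this scale against 38.2% on the level. The same unadjusted p gives a smaller adjusted p where more genes are called, so the share calls are more lenient. The unadjusted limma p of the Trbv31 share was 0.0223. Shares did not overlap between the groups in 5 Trbv rows, 2 higher (Trbv26 and Trbv30) and 3 lower (Trbv31, Trbv13-1 and Trbv1), against 6.72% and 47.3% of all tested genes so scaled (54% either way).

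The remaining major segments were not called. Trbv13-2 had 787, 775 and 702 normalized counts in buffer and 788, 788 and 923 with L-4F (log2 fold change 0.14, limma adjusted p = 0.126). Trbv12-2 had 574, 594 and 560 in buffer and 566, 656 and 628 with L-4F (0.10, limma adjusted p = 0.314). Trbv19, with a log2 fold change of 0.19, Trbv15, with 0.24, and Trbv14, with 0.23, had adjusted p of 0.0642, 0.0560 and 0.0603 in limma. Trbv15, Trbv14, Trbv30 and Trbv24 are named here after their values were seen. Trbv13-1 and Trbv1 had lower shares in every L-4F library than in any buffer library, 6.29% against 5.73% and 5.85% against 5.35% in the means. Neither change of share was called (limma adjusted p of 0.185 and 0.216). Trbv30, a weakly used segment, had shares of 0.282%, 0.266% and 0.266% in buffer and 0.339%, 0.396% and 0.327% with L-4F, without overlap and without a call (limma adjusted p of share 0.356). With a plain spread model Trbv30 was called higher in level and in share.

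Trbv12-1 had 358, 350 and 359 normalized counts in buffer and 452, 455 and 347 with L-4F (log2 fold change 0.22, limma adjusted p = 0.0768). L-4F library 3 lay below all buffer libraries, while the other L-4F libraries lay above them. Trbv16 also had its lowest L-4F value in library 3, with 450, 406 and 453 in buffer and 558, 485 and 447 with L-4F (0.18, limma adjusted p = 0.102). Trbv13-3 had 320, 316 and 320 in buffer and 364, 320 and 343 with L-4F (0.10, limma adjusted p = 0.394). Trbv20 and Trbv5 were among the rows with the most variable shares within groups. Trbv20 had 158, 125 and 162 in buffer and 179, 150 and 192 with L-4F, and Trbv5 had 137, 156 and 134 in buffer and 166, 208 and 150 with L-4F. Both overlapped between the groups. The pseudogene Trbv24 had the lowest fold change of the 22 tested Trbv rows (log2 fold change -0.35, limma adjusted p = 0.497), from 12.3, 19.8 and 21.7 in buffer to 15.6, 14.9 and 10.4 with L-4F. All 3 Trbv pseudogenes together held 0.263% of Trbv counts, and the 10 Trav pseudogenes held 0.644% of Trav counts.

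**Figure D2:**
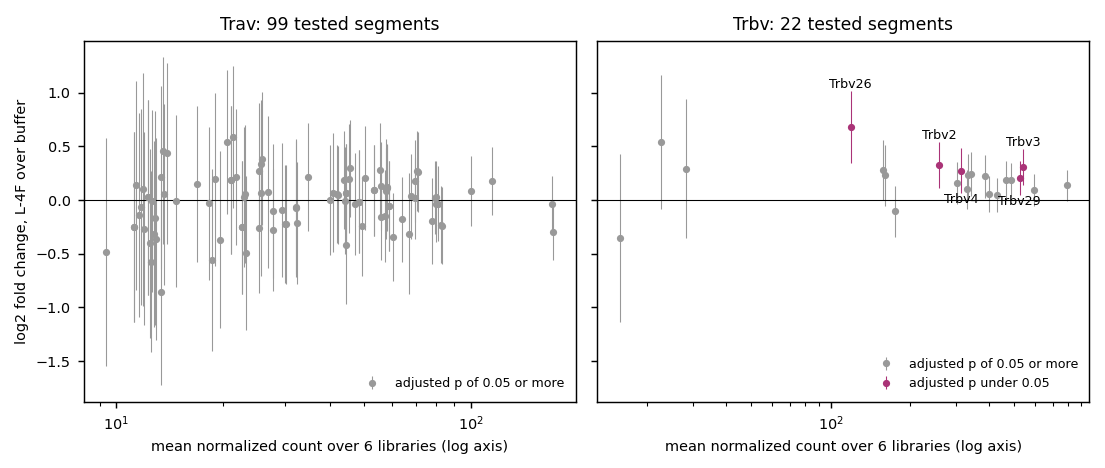
Log2 fold change of the level, L-4F against buffer, of the 99 tested Trav and 22 tested Trbv rows against their mean normalized count over 6 libraries (log axis); points are limma estimates, bars are 95% intervals and colour marks an adjusted p under 0.05. Called Trbv rows all lie above 0, and the Trav rows lie on both sides of 0.

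V segments are short, and length moved with the fold change. Among the 589 other tested genes with a transcript length in the range of the tested segments, 328 to 595 bases, the median log2 fold change was 0.25, 28.7% were called higher and 7.30% lower. The Trbv median of 0.21 lay close to that of these genes, while the Trav median was -0.00. The median transcript length was 370 bases in both chains. With a length trend taken out of the fold changes, the Trbv median became -0.02 and the Trav median -0.23. Then Trbv26 remained higher, Trbv31 fell (log2 fold change -0.34, limma adjusted p = 0.0340) and Trbv3, Trbv2, Trbv4 and Trbv29 were not called. The part of length in the Trbv result was not tested.

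The alpha chain used many more segments, each at a low level. Trav16n and Trav12-2 had the highest mean shares over the 6 libraries, 4.11% and 4.08%. Trav16n was first in the buffer mean (4.52% against 4.11%) and Trav12-2 in the L-4F mean (4.05% against 3.70%). By the mean over the 6 libraries, the 8 most used rows held 21.2%. These included Trav6-6 with Trav6d-6 and Trav12n-3 with Trav12d-3, pairs with the same coding sequence that are not separate measurements. Identical copies were counted as deposited here and in the family shares. The families with most counts were Trav12 with 13.7%, Trav6 with 12.8%, Trav14 with 12.6%, Trav7 with 10.5% and Trav16 with 8.21%. The effective number of Trav segments was 81.9, 83.2 and 81.4 in buffer and 81.6, 80.5 and 85.6 with L-4F. L-4F library 3 was highest and L-4F library 2 lowest, so the groups overlapped. With the rows of each subfamily summed to 54 subfamilies it was 34.3 ± 0.113 in buffer and 34.4 ± 1.05 with L-4F (SD, n = 3 each). Trav share profiles of 2 libraries differed by 8.60% to 11.8% of Trav counts within groups and by 7.93% to 12.3% between groups, with medians of 10.7% and 10.1%.

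**Figure D3:**
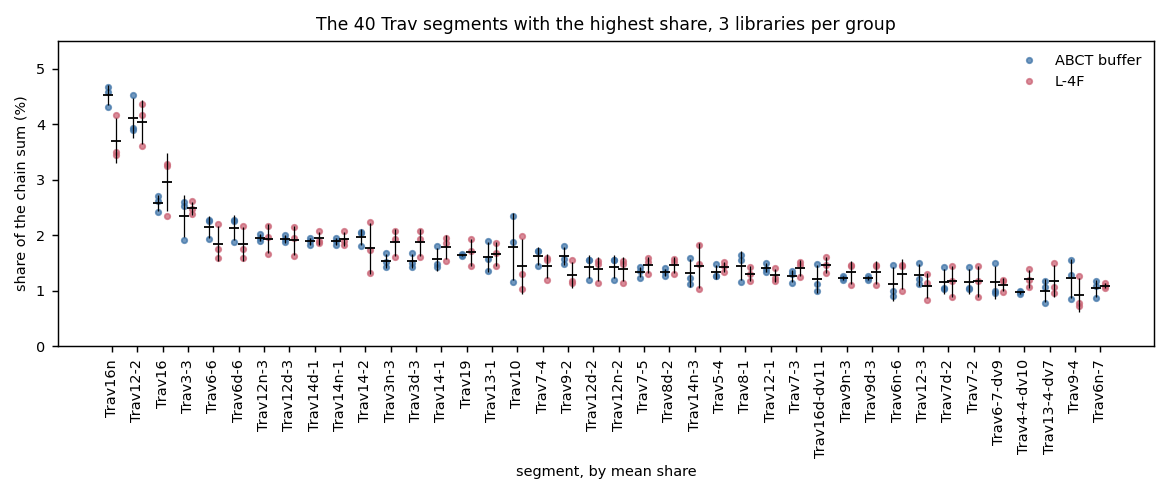
Share of the 40 most used Trav rows among Trav counts (percent) in each library; points are libraries, coloured by group, ticks are group means and bars are SD (n = 3). Trav16n led in the buffer mean and Trav12-2 in the L-4F mean, and Trav16n had lower shares in all 3 L-4F libraries than in any buffer library.

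No Trav row was called in level or in share. Of the 99 tested rows, 0 passed in limma, against 18.4% of all tested genes called higher and 19.7% called lower. In limma 1 row had an unadjusted p under 0.05, and limma-voom called 0 with 2 at an unadjusted p under 0.05. On the share scale 0 passed, with 1 at an unadjusted p under 0.05 in limma and 1 in limma-voom, while 18.5% of all tested genes were called higher and 18.1% lower after the same scaling. Their log2 fold changes had a median of -0.00, and 49 of 99 were above 0. It ranged from -0.86 in Trav7-1 to 0.59 in Trav1. The groups did not overlap in 8.08% of the rows, 3 higher (Trav4-4-dv10, Trav1 and Trav13n-1) and 5 lower (Trav16n, Trav4d-4, Trav4n-4, Trav7-1 and Trav13d-1). The same held for 47.6% of all tested genes, 23.2% higher and 24.4% lower. Trav4d-4 and Trav4n-4 have the same coding sequence and are not separate measurements. On the share scale the same 8 rows did not overlap, against 23.7% of all tested genes higher and 22.8% lower (46.5% either way). These 8 names were taken for their lack of overlap after the values were seen.

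Trav rows had low counts. The 95% interval of a Trav row reached a median of 0.56 to either side of its estimate on the log2 scale. Among 4637 other tested genes with counts in the same range, 3.92% were called higher and 7.76% lower. Replicates of a Trav row differed by a median of 1.22 times counting noise, against 1.64 in these genes. For Trbv the median was 2.43 against 1.79 in genes of its range.

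Trav16n had normalized counts of 197, 180 and 189 in buffer and 174, 142 and 145 with L-4F. All L-4F libraries were below all buffer libraries. The log2 fold change was -0.30 ± 0.12 (SE), with a limma adjusted p of 0.0576, and its share was 4.52% in buffer and 3.70% with L-4F (limma adjusted p of share 0.0677). The adjusted p of its level came under 0.05 with median centring, with scaling to total reads, with a stricter filter, with a length trend removed and without L-4F library 1. Its close relative Trav16 had 110, 101 and 111 in buffer and 137, 132 and 98.8 with L-4F. These groups overlapped, with the opposite sign of the mean difference (log2 fold change 0.17, limma adjusted p = 0.400). The Trav16 family as a whole held 8.30% ± 0.454 in buffer and 8.13% ± 0.755 with L-4F (SD, n = 3 each), and those groups overlapped too.

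Of the other most used rows, Trav12-2 had 164, 189 and 162 normalized counts in buffer and 150, 178 and 175 with L-4F (log2 fold change -0.03). Trav3-3 had 107, 80.2 and 107 in buffer and 99.0, 106 and 104 with L-4F (log2 fold change 0.08). Both pairs of groups overlapped. Trav6-6 had 96.1, 94.3 and 79.4 in buffer and 73.4, 89.4 and 66.6 with L-4F (log2 fold change -0.24, limma adjusted p = 0.306), and Trav6d-6, with the same coding sequence, repeated these values within 2 reads. Trav12n-3 had 85.5, 79.2 and 80.4 in buffer and 82.3, 88.4 and 69.7 with L-4F, and its identical copy Trav12d-3 was within 1 read of it. These groups overlapped as well. Trav10 varied most between replicates, at 8.04 times counting noise: it had 48.5, 98.1 and 77.3 in buffer and 43.4, 52.7 and 83.2 with L-4F. It was the only tested Trav row above the 95th percentile (5.65) of other genes with like counts. Trav14n-3, with 52.0, 47.2 and 66.0 in buffer and 43.4, 60.6 and 77.0 with L-4F, and Trav6n-6, with 42.3, 61.3 and 37.1 in buffer and 60.1, 59.6 and 41.6 with L-4F, also had widely spread shares within groups.

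A pair of Trav segments is known from invariant receptors of unconventional T cells. Trav11 joins to Traj18 in invariant natural killer T cells. Its normalized counts were 23.8, 26.4 and 17.5 in buffer and 17.8, 28.8 and 22.9 with L-4F, with overlap and a log2 fold change of 0.03 (limma adjusted p = 0.954). Trav11d was within 1 read of Trav11 in every library, with annotated coding sequences of 342 and 343 bases. Trav1 joins to Traj33 in mucosal-associated invariant T cells. It had 14.1, 17.9 and 18.6 in buffer and 32.3, 23.8 and 21.8 with L-4F. All L-4F libraries were above all buffer libraries, but the log2 fold change of 0.59 ± 0.32 (SE) was not called (limma adjusted p = 0.160). Zbtb16, the transcription factor of both cell types, fell (log2 fold change -0.55, limma adjusted p = 0.00899). The summed level of this marker list, Zbtb16, Trav11 and Trav1, was 161 to 203 in buffer and 132 to 155 with L-4F. Neither segment is specific to these cells, since conventional T cells use both.

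Trav segments that carry dv in their names can also be joined in the delta chain of gamma-delta T cells. The 10 such rows held 7.18% to 7.99% of Trav counts in buffer and 7.64% to 8.33% with L-4F, and 0 of 10 were called, against 38.2% of all tested genes and 11.7% of other tested genes with counts in the Trav range. The constant genes of gamma and delta chains were higher with L-4F. Their log2 fold changes were 0.24 in Trdc, 0.50 in Trgc1, 0.22 in Trgc2 and 0.50 in Trgc4, and the groups overlapped in Trgc2. The marker list of gamma-delta T cells, which adds Sox13 and Blk, summed to 2553 to 2851 in buffer and 3181 to 3526 with L-4F. Of this list, 4 of 6 were called higher and 0 lower. Its part in the V segment results was not tested.

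Trav rows with the same coding sequence had nearly the same reads. Of 16 pairs of rows from the same subfamily with identical coding sequence, 8 had equal reads in all 6 libraries and 16 of 16 were within 2 reads in every library. Trav12d-2 and Trav12n-2 had the same 74, 69, 48, 43, 63 and 60 reads. Of 69 pairs with different coding sequences (88.1% to 99.7% identical), 2 had equal reads and 3 were within 2 reads, and the median of the largest difference was 38 reads. Values of identical copies are therefore not separate measurements, and the sources used here do not say how the authors counted reads that fit several places. Other close copies, such as Trav12-2 and Trav12d-2 above, had reads of their own. Counting once the rows of a subfamily with the same coding sequence or with equal reads in all 6 libraries left 101 Trav rows with an effective number of 68.6 in buffer and 69.0 with L-4F.

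**Figure D4:**
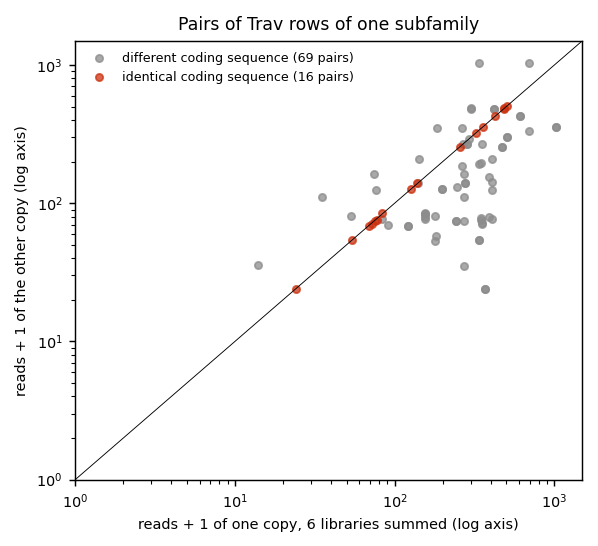
Reads of 1 row against those of the other (each summed over 6 libraries, plus 1, log axes) for pairs of Trav rows of a subfamily; the line marks equal reads and colour gives whether coding sequences are identical. The 16 identical pairs lie on or close to the line, and most of the 69 pairs with different sequences lie off it.

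Rows of the version with no letter (52 rows) held 49.99% of Trav counts, rows named D (37 rows) 25.4% and rows named N (31 rows) 24.6%. By order along chromosome 14, the 40 Trav rows nearest to Trac held 42.5% of Trav counts, the middle 40 held 30.8% and the farthest 40 held 26.7%. In the beta locus, the 8 upstream rows held 42.9%, the next 8 held 42.5% and the last 9, from Trbv20 to Trbv31, held 14.6%. These splits describe all libraries together, and identical copies were counted as deposited.

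Summed V counts were higher with L-4F in the beta chain and not in the alpha chain. Summed Trav counts were 4211, 4176 and 4125 in buffer and 4168, 4069 and 4199 with L-4F, and the groups overlapped. Identical Trav copies were counted as deposited. Summed Trbv counts were 6869, 6737 and 6588 in buffer and 7539, 7782 and 7642 with L-4F. All L-4F sums were above all buffer sums, with a ratio of group means of 1.14. The constant genes rose in both chains. Trac went from 12472 ± 348 to 13946 ± 276 (SD, n = 3 each), a log2 fold change of 0.16 in limma with an adjusted p of 1.69e-05. Trbc1 rose by a log2 fold change of 0.43 and Trbc2 by 0.46, with limma adjusted p of 3.04e-11 and 2.17e-12.

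Relative to the constant genes to which they are spliced, V counts were lower with L-4F. Summed Trav counts equalled 33.3%, 34.6% and 32.5% of Trac counts in buffer and 29.3%, 29.3% and 30.6% with L-4F. Summed Trbv counts equalled 40.05%, 39.97% and 39.1% of summed Trbc1 and Trbc2 counts in buffer and 32.2%, 34.7% and 32.6% with L-4F. In both chains all L-4F libraries lay below all buffer libraries. These percentages compare the groups only, since V and constant genes differ in length. No test was run on these sums, and the part of length in them was not tested. Trbc1 made up 37.5% of Trbc counts in buffer and 37.0% with L-4F, with overlapping groups.

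**Figure D5:**
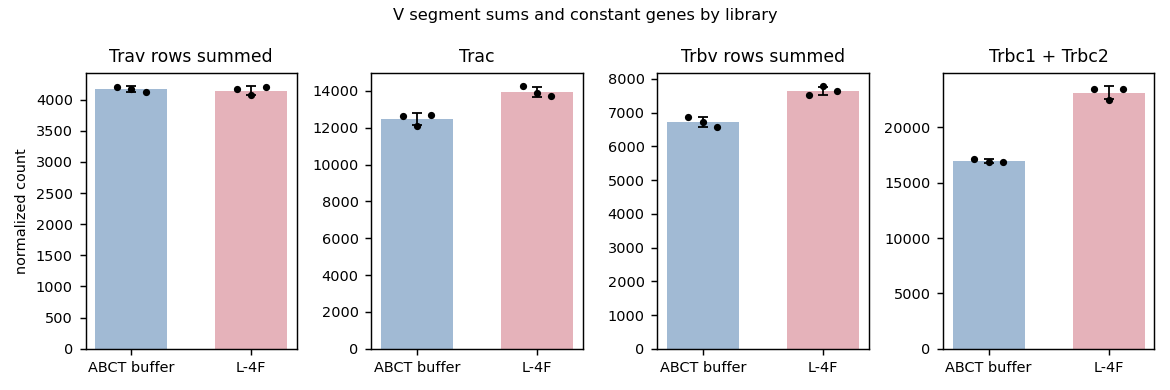
Summed normalized counts of Trav and Trbv rows and counts of the constant genes in each library; bars are group means, error bars are SD (n = 3) and points are libraries. Trbv, Trac and Trbc are higher in all L-4F libraries, and Trav overlaps between the groups.

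Other receptor segments gave no calls. Of the J segments, 0 of 27 tested Traj rows and 0 of 14 Trbj rows were called, with medians of -0.01 and -0.02. The 2 Trbd rows, 4 tested Trdv rows and 3 tested Trgv rows gave 0 calls as well. Summed Trbj counts were 1128 to 1161 in buffer and 1164 to 1212 with L-4F, and summed Traj counts 580 to 619 and 560 to 588. Over all tested genes 38.2% were called.

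Genes of the receptor complex rose in part. Of the CD3 chains, which carry the receptor's signal, Cd3d rose by a log2 fold change of 0.40, Cd3g by 0.41 and Cd247, the zeta chain, by 0.23, while Cd3e had 0.05 and was not called (limma adjusted p = 0.184). The coreceptor genes Cd8a and Cd8b1 rose by 0.12 and 0.34. Cd4, the coreceptor of helper cells, fell (log2 fold change -0.68, limma adjusted p = 0.0294). Dntt, which adds bases at the joints during receptor assembly in the thymus, was at 5.83 in buffer and 14.4 with L-4F and was not called (limma adjusted p = 0.0728). Rag1, part of the enzyme that cuts the segments, did not reach the level needed for the test. No row carried the symbol Ptcra or Rag2. The list of 5 CD8 T cell markers, all of them in the test, summed to 62057 to 62949 in buffer and 71427 to 73349 with L-4F, with 4 called higher. Of the other lists, CD4 T cells had 0 of 4 higher and 1 lower, NK cells 2 of 5 higher, B cells 1 of 5 higher, and macrophages and dendritic cells 0 of 5. Their part in the V segment results was not tested.

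The authors' deposited table gave its own test of the same libraries. In the authors' deposited table, 0 Trav rows and 3 Trbv rows (Trbv3, Trbv2 and Trbv26) had an FDR under 0.05, against 21.3% of its 24559 rows. These 3 were among the 5 called here.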

How the data were processed

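RNA-seq was made from CD8+ T cells of mouse spleen, 3 libraries with L-4F and 3 with ABCT buffer, grouped by title. Per the labels' protocols, libraries were strand-specific, from total RNA. FastQC (0.11.2 and 0.11.5) and StringTie 1.3.1c are listed in the submitters' processing notes. No aligner, genome build or annotation is given in the sources used here. The authors deposited log2 values per gene, which are log2(normalized count + 1), the normalized count being reads over a factor for each library. Whole reads came back for all rows within 0.01 read, with factors of 0.899 to 1.13. The deposited table also gave the authors' p-value and FDR for each gene.

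The deposited log2 values were tested with limma 3.58.1 (R 4.3.3), trended and robust, with a single group term. Benjamini-Hochberg adjustment ran over the 14922 genes that reached 10 normalized counts in 3 or more libraries. For shares, the whole table was scaled to the summed V counts of the chain and refitted. Fold changes on the log2(normalized count + 1) scale understate those of low genes. Length and coding sequence came from GENCODE M21 (GRCm38) by gene identifier, for 24513 of 24559 rows and all 145 members. It calls Trav7d-6 and Trav13-5 by other names. Fits were tested on simulated data.

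The members, lists and tests were chosen with earlier results of these data known. Named rows were the 8 of each chain with the highest mean share, those called (up to 5 a direction), the 3 of each chain with the most variable shares at a mean of at least 50 counts, and Trav11, Trav11d, Trav1, Trbv1, Trbv31 and the Trbv12 and Trbv13 families. Receptor constant, CD3, coreceptor and recombination genes were added. Alternatives covered scaling, filter, pseudocount, spread model, limma-voom, a length trend, a replicate block, identical copies and leaving out each library.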

Additional observations from a re-analysis of the deposited data

How the results depend on the processing

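The number of Trav rows called, 0 as reported, was 1 with median centring, 1 with scaling to total reads and 1 with a minimum of 50 normalized counts, each time Trav16n, and 4 with the length trend removed (Trav9-2, Trav6d-6, Trav6-6 and Trav16n). Leaving out 1 library gave 0 to 1 called Trav rows, with the 1 (Trav16n) without L-4F library 1, and 0 to 1 on the share scale, again without L-4F library 1. The number of Trbv rows called, 5 as reported, was 3 with median centring, 3 with quantile normalization, 3 with no filter, 3 with a plain spread model (Trbv2, Trbv26 and Trbv30), 2 with the length trend removed (Trbv26 higher, Trbv31 lower) and 7 with the minimum of 50 (Trbv14 and Trbv15 added). Leaving out 1 library gave 2 to 6, with 2 (Trbv3 and Trbv26) without buffer library 2 or 3. The number of Trbv rows with a called share, 2 as reported, was 1 with no filter, 1 with limma-voom, 1 with the length trend removed and 0 to 1 on leaving out 1 library (0 without buffer library 3). The 1 was Trbv26, except without buffer library 2, where it was Trbv3 (limma adjusted p = 0.0447). With a plain spread model 2 shares were called, Trbv30 and Trbv31. With the length trend removed, Trbv29 changed sign to a log2 fold change of -0.029 (limma adjusted p = 0.823). The cause of these differences was not tested. Whether same-numbered libraries of the 2 groups were paired could not be decided. Their deviations from the group means had correlations of 0.05, 0.01 and 0.11 over all tested genes. Not every library correlated best with its own number. Deviations from a mean of 3 libraries are tied to each other, so these values cannot show whether pairing existed. With a replicate block, 5 Trbv rows, 0 Trav rows, 0 Trav shares and 1 Trbv share were called; Trbv15 replaced Trbv4 among the 5, and the share of Trbv31 lost its call (limma adjusted p = 0.0581). Over all genes, median centring called 2161 higher and 3630 lower, against 2747 and 2947 as reported. The other named values gave 53 sign differences in 920 recomputed values, all in values not called. Reads of identical copies could not be told apart.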
